A study of Homo sapiens with 8 samples.

Results

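Aminoacyl-tRNA synthetases were followed as a group of 38 genes, 19 for cytosolic enzymes, 16 for mitochondrial enzymes and 3 for scaffold proteins, chosen by a fixed list of gene symbols and matched to the identifiers of the count files among 58051 genes in all. RNA came from 8 samples of MDAMB231 (MDA231), an established human breast cancer line of mesenchymal appearance. Of these, 2 were parental and not modified, 3 were SDHB KO cells (knockout cells from here on), and 3 were SDHB KO SDHA low cells (knockdown cells), which carry the SDHB knockout and, on top of it, a knockdown of SDHA. SDHB and SDHA are subunits of complex II (succinate dehydrogenase) of the respiratory chain, and the 3 groups stand for cells with the full complex, with a sub-complex that holds SDHA without SDHB, and with little of either.

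The knockout was made in the study with a TALEN nuclease aimed at exon 1 of SDHB, under selection with hygromycin, and the knockdown by an SDHA shRNA plasmid in the knockout cells under selection with puromycin. All cells grew in full medium without treatment and were harvested before confluence. The labels number the replicates as biological but do not say whether the knockout samples carried an empty vector or whether replicates of a group were separate sublines. The p-values therefore measure the spread between these samples, and a property of a subline cannot be told apart from the modification.

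A synthetase joins an amino acid to its tRNA, and every protein a cell makes depends on that step. Separate nuclear genes encode most of the enzymes of the cytosol and of mitochondria, and GARS1 and KARS1 serve both. Several cytosolic enzymes are held together in the multisynthetase complex by the scaffold proteins AIMP1, AIMP2 and EEF1E1. When amino acids run short or mitochondria are under stress, the transcription factor ATF4 accumulates, and many cytosolic synthetase genes are among its known targets, together with genes of amino acid uptake and serine synthesis.

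The letters TGATGNAA, the core of the element that ATF4 binds together with C/EBP factors, were searched on both strands of RefSeq promoters (GRCh38.p14, 250 bases before to 50 after the start). They were found at 7 of the 16 cytosolic genes with a promoter entry (43.8%), at 1 of 14 mitochondrial genes (7.14%), at 6 of 20 genes of an ATF4 response list (30%) and at 4.46% of 27305 genes in all. No entry was at hand for AARS2, LARS1, VARS1, VARS2 and YARS1. The 8 members with a match are given with that of ASNS, asparagine synthetase, a textbook ATF4 target, because they mark which members carry these letters in this window. Each line reads 5′ to 3′ on the strand of the gene, with the match in capitals (TTGCATCA and TTTCATCA are matches read on the other strand).
AARS1, chr16:70289675-70289704, minus strand: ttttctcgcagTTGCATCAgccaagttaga
CARS1, chr11:3057407-3057436, minus strand: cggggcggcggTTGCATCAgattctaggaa
GARS1, chr7:30594834-30594863, plus strand: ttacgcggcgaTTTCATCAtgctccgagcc
IARS1, chr9:92293692-92293721, minus strand: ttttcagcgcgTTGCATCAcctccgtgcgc
MARS1, chr12:57488053-57488082, plus strand: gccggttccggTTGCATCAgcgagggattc
NARS1, chr18:57621804-57621833, minus strand: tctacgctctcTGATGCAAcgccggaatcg
TARS1, chr5:33440956-33440985, plus strand: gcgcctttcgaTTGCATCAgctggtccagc
YARS2, chr12:32756076-32756105, minus strand: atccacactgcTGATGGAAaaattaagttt
ASNS, chr7:97872458-97872487, minus strand: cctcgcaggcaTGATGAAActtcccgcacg

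The library kit primes at the poly(A) tail and reads the 3′ end of a transcript. A transcript then gives reads from its end whatever its length, so levels were not divided by length. They are given as CPM scaled by TMM. That is, the reads of a gene are set against the reads, in that sample, on genes that passed the filter on low counts described below. Each sample held 773042 to 1427141 reads on genes, of which 2351 to 4782 fell on the 38 members, and a count of 3 was worth 2.24 to 4.10 CPM. The biological coefficient of variation over all tested genes was 21.5%. Knockdown replicate 2 stood apart within its group, with a chi-square per degree of freedom of 9.44 and 10.2 against the other 2 samples and 3.04 between those, while pairs of samples of the other groups had 2.07 to 5.15. The targeted gene SDHA had 64 and 69 counts in the parental samples, 108, 121 and 140 in the knockout samples and 7, 17 and 16 in the knockdown samples, and it fell by 3.46 on the log2 scale from knockout to knockdown cells (edgeR, adjusted p = 1.2e-07). SDHB had 0 to 4 counts in every sample, and reads from the 3′ end say nothing of an edit in exon 1. VIM, CD44, AXL and CAV1, markers of this line, had 44 counts or more in every sample, S100A4 had only 3 to 13, ESR1 and PGR had none, EPCAM and CDH1 had at most 2, and ERBB2 had 15 to 25. In bulk RNA, fewer cells with a transcript and less of it per cell cannot be told apart.

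The filter on low counts (a mean of normalized counts above 5) left 33 members, among them all 19 cytosolic enzymes, 13 of the 16 mitochondrial enzymes and 1 scaffold gene, AIMP2. The other 5 could not be tested. The mitochondrial alanyl enzyme AARS2 had 1 to 6 counts per sample, the methionyl enzyme MARS2 0 to 8 and the asparaginyl enzyme NARS2 0 to 3. The scaffold genes AIMP1 and EEF1E1 had 1 to 9 and 0 to 8.

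**Figure D1:**
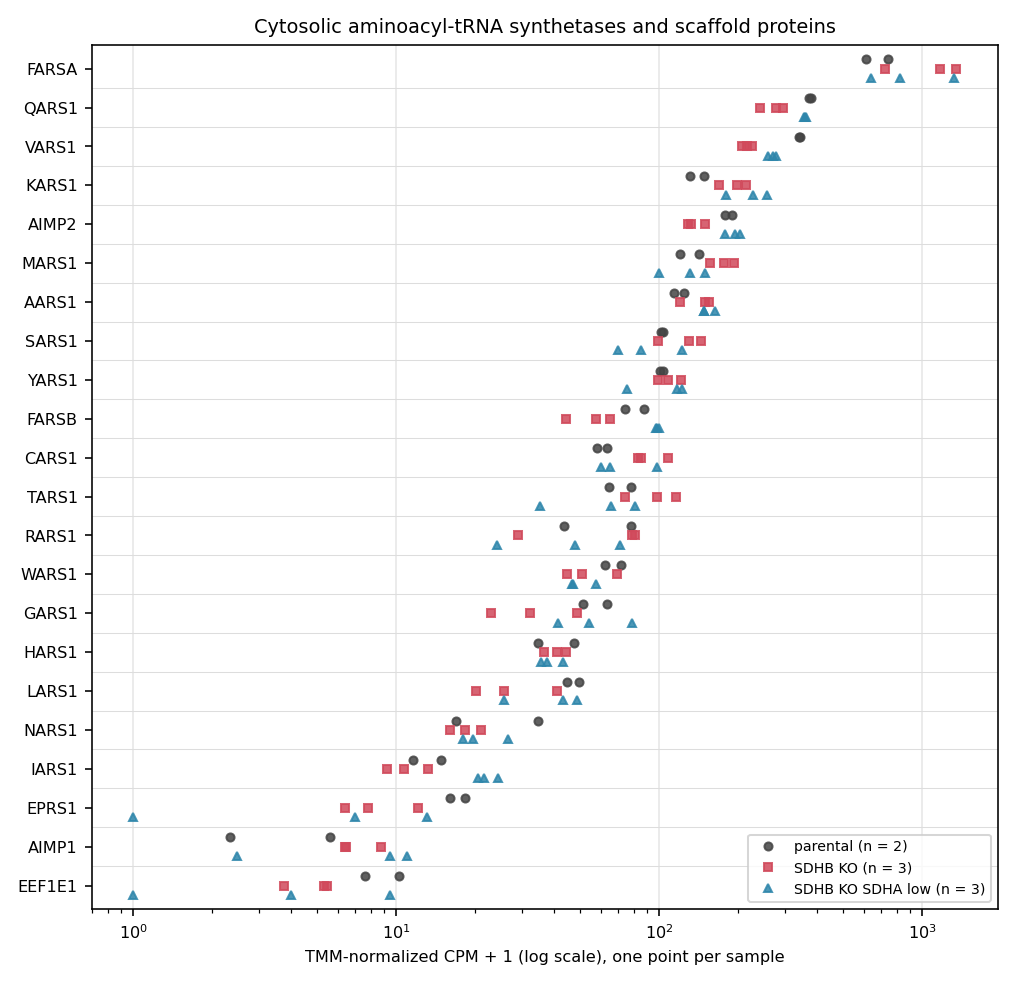
Levels of the 19 cytosolic synthetases and 3 scaffold genes in each of the 8 samples, as TMM-normalized CPM plus 1 on a log axis; circles are parental, squares SDHB KO (knockout) and triangles SDHB KO SDHA low (knockdown) samples. FARSA lies above the other members in every sample, and the samples of the 3 groups mix in most rows, with VARS1, QARS1, FARSB and AIMP2 as rows in which the knockout samples lie lowest.

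**Figure D2:**
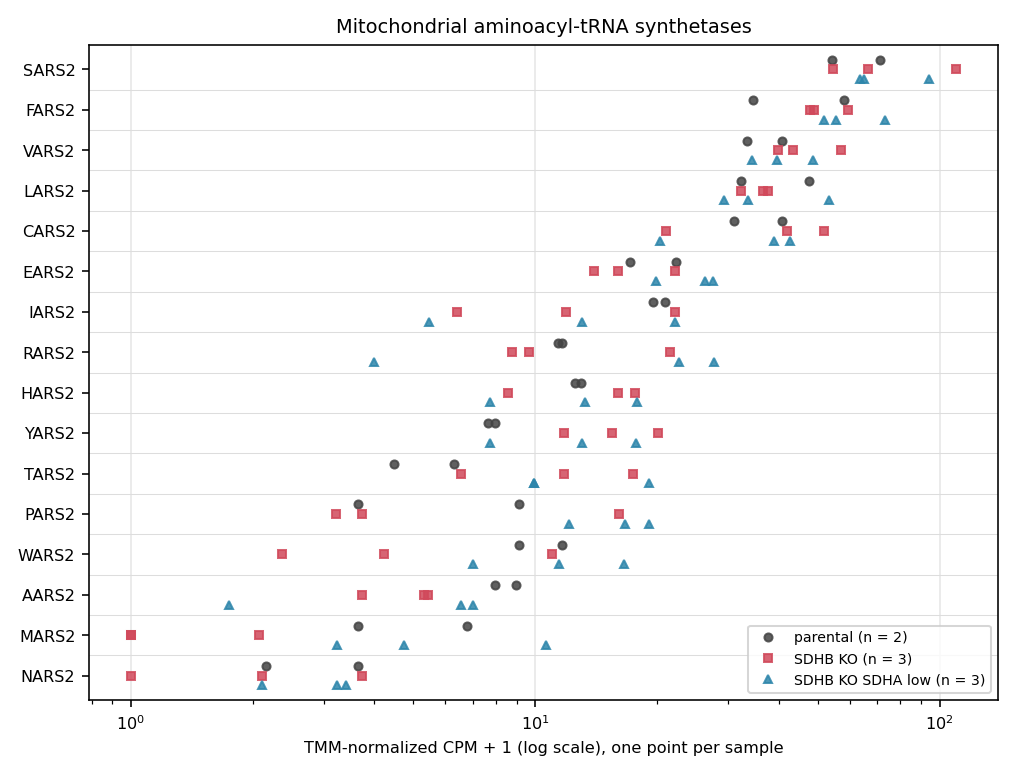
Levels of the 16 mitochondrial synthetases in each of the 8 samples, on the same scale and with the same symbols. No row has knockout and knockdown samples apart except MARS2, which had 0 to 8 counts and was not tested.

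The summed level of all 38 members was 3024 ± 138 CPM in parental cells (SD, n = 2), 3285 ± 312 in knockout cells (n = 3) and 3325 ± 237 in knockdown cells (n = 3). FARSA, the alpha subunit of the phenylalanyl enzyme, made up 20.7% to 38.4% of that sum, depending on the sample. Without it the sums were 2347 ± 47.4, 2206 ± 37.2 and 2397 ± 130 CPM. The 3 knockout samples then lay lowest, at 2241, 2211 and 2167 CPM, next to 2248 in knockdown replicate 2. The 16 mitochondrial genes summed to 317 ± 55.2, 342 ± 42.5 and 369 ± 25.8 CPM, and the samples of the groups overlapped.

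Knockout cells were first compared with parental cells, which asks whether synthetase transcripts differ once SDHB is lost and the sub-complex stays. Only VARS1, the cytosolic valyl enzyme, passed the test, and it was lower, as were 2.4% of all tested genes. No cytosolic enzyme passed in the upward direction, as 3.14% of all genes did, and no mitochondrial or scaffold gene passed in either direction. The 33 tested members were thus called in 3.03% of cases, beside 5.54% of the 7550 genes tested in all (edgeR quasi-likelihood test, adjusted p below 0.1). At an unadjusted p below 0.05 there were 4 members, CARS1 and FARSA higher and VARS1 and QARS1 lower, or 12.1% beside 17.5% of all genes. The log2 difference was above 0 for 18 of the 33 members, or 54.5% beside 49.9%.

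VARS1 (chr6:31777518-31795752, minus strand, GRCh38 in GENCODE release 44) had 340.1 and 342.5 CPM in parental cells, 224, 206 and 215 in knockout cells, and 269, 276 and 257 in knockdown cells. The 3 groups did not overlap, with knockout samples lowest and parental samples highest. VARS1 fell by 0.67 on the log2 scale from parental to knockout cells (95% confidence interval -1.09 to -0.25, edgeR adjusted p = 0.083). Its difference between knockdown and knockout cells was 0.32 (adjusted p = 0.51), and that between knockdown and parental cells was -0.35 (adjusted p = 0.50), neither past the threshold. With a sample of the comparison left out the difference stayed between -0.70 and -0.64, and the adjusted p was 0.15, 0.13 and 0.20 without knockout replicates 1, 2 and 3. Without a parental replicate that group has 1 sample, whose spread is taken from the other groups. No gene of the 7550 was then called without parental replicate 1 and 46 were without parental replicate 2, so that the loss of the call there (adjusted p = 0.49 and 0.33) is not particular to VARS1. It was also lost without the filter on low counts (adjusted p = 0.17), and DESeq2 called it at 0.029.

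Among enzymes of the multisynthetase complex, QARS1, the glutaminyl enzyme, followed the same order of knockout samples below the others without passing the test. It had 371 and 377 CPM in parental cells, 296, 241 and 278 in knockout cells, and 357, 356 and 361 in knockdown cells. The knockout samples were lower than all others, with a log2 difference of -0.46 from parental cells (edgeR adjusted p = 0.23) and one of 0.40 between knockdown and knockout cells (adjusted p = 0.39). The scaffold gene AIMP2 had 189 and 177 CPM in parental cells, 148, 131 and 127 in knockout cells and 193, 177 and 202 in knockdown cells. Here too the knockout samples lay below the others, with log2 differences of -0.43 (edgeR adjusted p = 0.31) and 0.49 (adjusted p = 0.30) that missed the threshold. The last exons of AIMP2 overlap those of EIF2AK1 on the other strand, and whether counting used strand is not stated.

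The subunits of the cytosolic phenylalanyl enzyme, which work as a tetramer, lay in opposite directions in knockout cells, and neither passed the test. FARSA had 613 and 741 CPM in parental cells, 1169, 719 and 1349 in knockout cells, and 826, 1320 and 641 in knockdown cells. Knockout replicates 1 and 3 and knockdown replicate 2 were high and the other 5 samples low, so that the groups overlapped, and the log2 difference between knockout and parental cells was 0.67 (edgeR adjusted p = 0.20). The 3 samples with high FARSA were also those in which genes rich in G and C at their 3′ end stood higher: the rank correlation, over the tested genes, of GC content in the last 300 bases with the deviation of a gene in that sample was 0.17, 0.231 and 0.181 there and -0.211 to 0.045 in the other 5. The last 300 bases of FARSA hold 60% G and C. With a correction for this trend its difference was 0.64 (adjusted p = 0.15), again not past the threshold. FARSA did pass in a fit of only these 2 groups (adjusted p = 0.062), without knockout replicate 2 (0.090) and without knockdown replicate 2 (0.037).

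FARSB, the beta subunit, had 72.9 and 86.3 CPM in parental cells, 64.3, 56.7 and 43.2 in knockout cells, and 96.6, 97.0 and 99.2 in knockdown cells. The 3 groups did not overlap, with knockout samples lowest and knockdown samples highest, and the log2 difference between knockout and parental cells was -0.54 (edgeR adjusted p = 0.29). The ratio of FARSA to FARSB, which was chosen after the values had been seen and not tested, was 8.41 and 8.58 in parental cells, 18.2, 12.7 and 31.3 in knockout cells, and 8.55, 13.6 and 6.46 in knockdown cells.

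**Figure D3:**
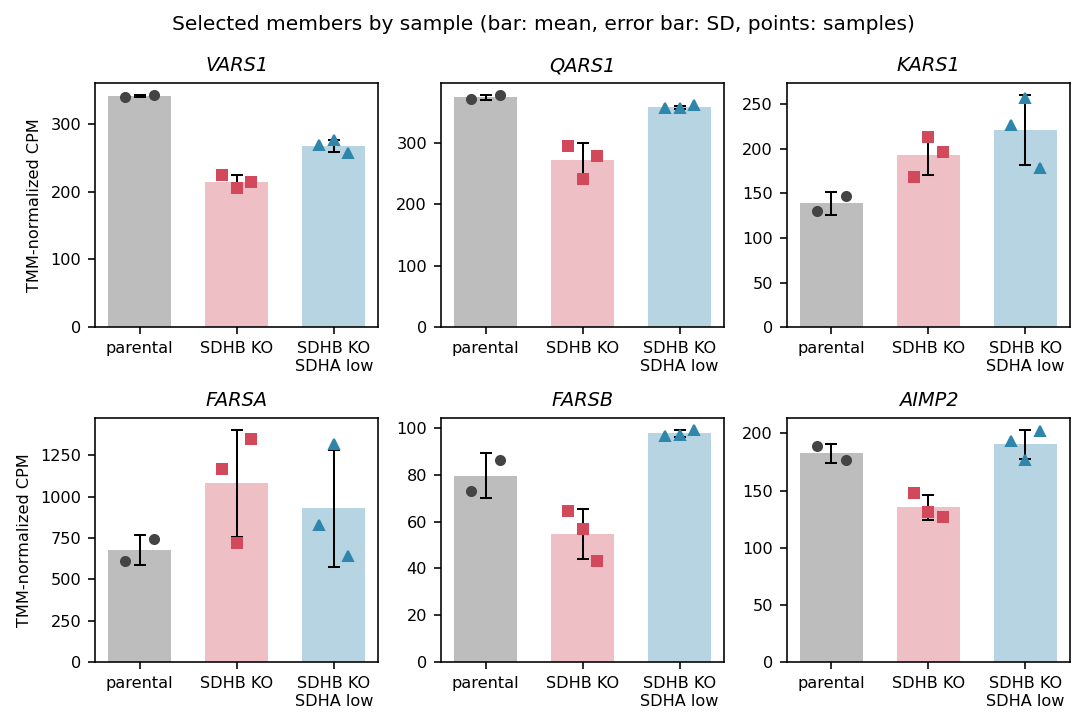
TMM-normalized CPM of VARS1, QARS1, KARS1, FARSA, FARSB and AIMP2 by group; points are samples, bars the mean and error bars the SD, with n = 2 parental, 3 knockout and 3 knockdown samples. VARS1 is lowest in the knockout samples at 206 to 224 CPM, while FARSA is spread over 719 to 1349 CPM within the same group.

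The 13 tested mitochondrial enzymes had a median log2 difference of 0.18 between knockout and parental cells, against -0.005 for the 19 cytosolic enzymes and -0.00072 for all tested genes. None had an unadjusted p below 0.05 in any of the 3 comparisons, and DESeq2, which gave an adjusted p to 2 to 5 of them, called none. The members with the smallest p were YARS2 (tyrosyl), with a difference of 1.09, and TARS2 (threonyl), with 1.28, each higher in every knockout sample than in both parental samples, and WARS2 (tryptophanyl), with -0.87 and overlapping groups (edgeR adjusted p = 0.36, 0.36 and 0.57). WARS2 had 8.10 and 10.6 CPM in parental cells, 1.37, 10.01 and 3.24 in knockout cells, and 6.03, 10.4 and 15.6 in knockdown cells. Its difference in knockout cells was -1.90 without knockout replicate 2, the sample that stood with the parental ones, and -0.49 without replicate 1. TARS2 had 3.47 and 5.31 CPM in parental cells, 16.4, 5.56 and 10.8 in knockout cells, and 18.1, 8.95 and 8.91 in knockdown cells. The parental samples were thus below the other 6, but on 3 and 4 counts, close to what a count of 3 is worth. YARS2 was also low, with 5 to 15 counts per sample and 6 and 5 in the parental samples. It had 6.94 and 6.64 CPM in parental cells, 19.2, 14.45 and 10.8 in knockout cells, and 12.1, 6.72 and 16.7 in knockdown cells. Groups did not overlap for 12 of the 33 members, or 36.4% beside 37.9% of all genes, with 5 members higher (all genes 19.3%) and 7 lower (18.6%).

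The next comparison, of knockdown with knockout cells, asks whether they differ once SDHA is reduced as well. No member passed the test, beside 1.51% of all genes (edgeR, 7 members at an unadjusted p below 0.05, DESeq2 none). The count over all genes, 114, was 362 without knockdown replicate 2 and 39 without knockout replicate 1. Those 7 were FARSB, GARS1, IARS1, QARS1 and AIMP2, which were higher, and MARS1 and TARS1, which were lower, or 21.2% beside 12.1% of all genes. Groups did not overlap for 6 members, or 18.2% beside 17.4%, with 5 higher (all genes 8.7%) and 1 lower (8.69%), and 17 members had a difference above 0, or 51.5% beside 51.1%. The median log2 difference was -0.07 for the cytosolic and 0.12 for the mitochondrial enzymes, with 0.01 for all genes.

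FARSB came closest, with a log2 difference of 0.84 (95% confidence interval 0.35 to 1.33, edgeR adjusted p = 0.11). It passed the threshold with another filter on low counts (adjusted p = 0.0996), without knockdown replicate 2 (0.073) and with the correction for GC content (0.086). IARS1, the isoleucyl enzyme of the multisynthetase complex, had 13.9 and 10.6 CPM in parental cells, 8.21, 12.2 and 9.71 in knockout cells, and 20.5, 19.4 and 23.4 in knockdown cells. Every knockdown sample was above all others, with a difference of 1.05 from knockout cells that missed the threshold (adjusted p = 0.30) on 6 to 26 counts per sample. MARS1, the methionyl enzyme, which was picked out after its values had been seen, had 119 and 141 CPM in parental cells, 192, 156 and 176 in knockout cells, and 148, 98.5 and 130 in knockdown cells. The knockout samples were the highest, by 0.42 over parental cells (adjusted p = 0.38) and with a difference of -0.48 in knockdown cells (adjusted p = 0.38). The end of MARS1 overlaps that of DDIT3, a stress gene of the ATF4 response, on the other strand, and DDIT3 differed in the same directions, by 1.41 (adjusted p = 0.19) and -1.51 (adjusted p = 0.19).

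Of the mitochondrial enzymes, PARS2 (prolyl), WARS2 and EARS2 (glutamyl) had the smallest p in this comparison, with log2 differences of 1.10, 1.08 and 0.53 and edgeR adjusted p of 0.48, 0.52 and 0.61. PARS2 had 8.10 and 2.66 CPM in parental cells, 2.74, 2.22 and 15.1 in knockout cells, and 18.1, 15.7 and 11.1 in knockdown cells. Knockout replicate 3 stood with the knockdown samples and the other 2 knockout samples below 3 counts, and without it the difference was 2.53. That of WARS2 was 2.1 without knockout replicate 2 and 0.69 without replicate 1. No mitochondrial member had groups without overlap here.

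The last comparison set knockdown cells against parental cells, which asks what differs between cells with the full complex and cells with little of it. No member passed the test, beside 0.914% of all genes (edgeR, 1 member at an unadjusted p below 0.05, DESeq2 none). That member was KARS1, the lysyl enzyme of cytosol and mitochondria, with 130 and 147 CPM in parental cells, 168, 213 and 196 in knockout cells and 227, 257 and 178 in knockdown cells. Both modified groups lay above the parental samples and overlapped each other, with log2 differences from parental cells of 0.48 (edgeR adjusted p = 0.30) and 0.68 (adjusted p = 0.22). EPRS1, which charges both glutamate and proline, had 15.0 and 17.3 CPM in parental cells, 6.84, 11.1 and 5.40 in knockout cells, and 12.1, 5.97 and 0 in knockdown cells. The parental samples were the highest, on 13 counts each, and the difference of -1.43 between knockdown and parental cells had an adjusted p of 0.42.

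TARS2, PARS2 and FARS2 (phenylalanyl) had the smallest p among mitochondrial members against parental cells, with differences of 1.41, 1.42 and 0.39 (edgeR adjusted p = 0.43, 0.44 and 0.66). Without parental replicate 1 those of PARS2 and FARS2 were 2.44 and 0.05, and without replicate 2 they were 0.88 and 0.81. Groups did not overlap for 10 members, or 30.3% beside 30.7% of all genes, with 6 higher (all genes 15.2%) and 4 lower (15.5%), and 17 had a difference above 0, or 51.5% beside 51.4%. At an unadjusted p below 0.05 stood 3.03% of the members and 12.3% of all genes. The median difference was -0.06 for cytosolic and 0.26 for mitochondrial enzymes. Leaving out parental replicate 1 gave a mitochondrial median of 0.05, and leaving out parental replicate 2 gave 0.47. This comparison and the first share the parental samples, and the first and second share the knockout samples.

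**Figure D4:**
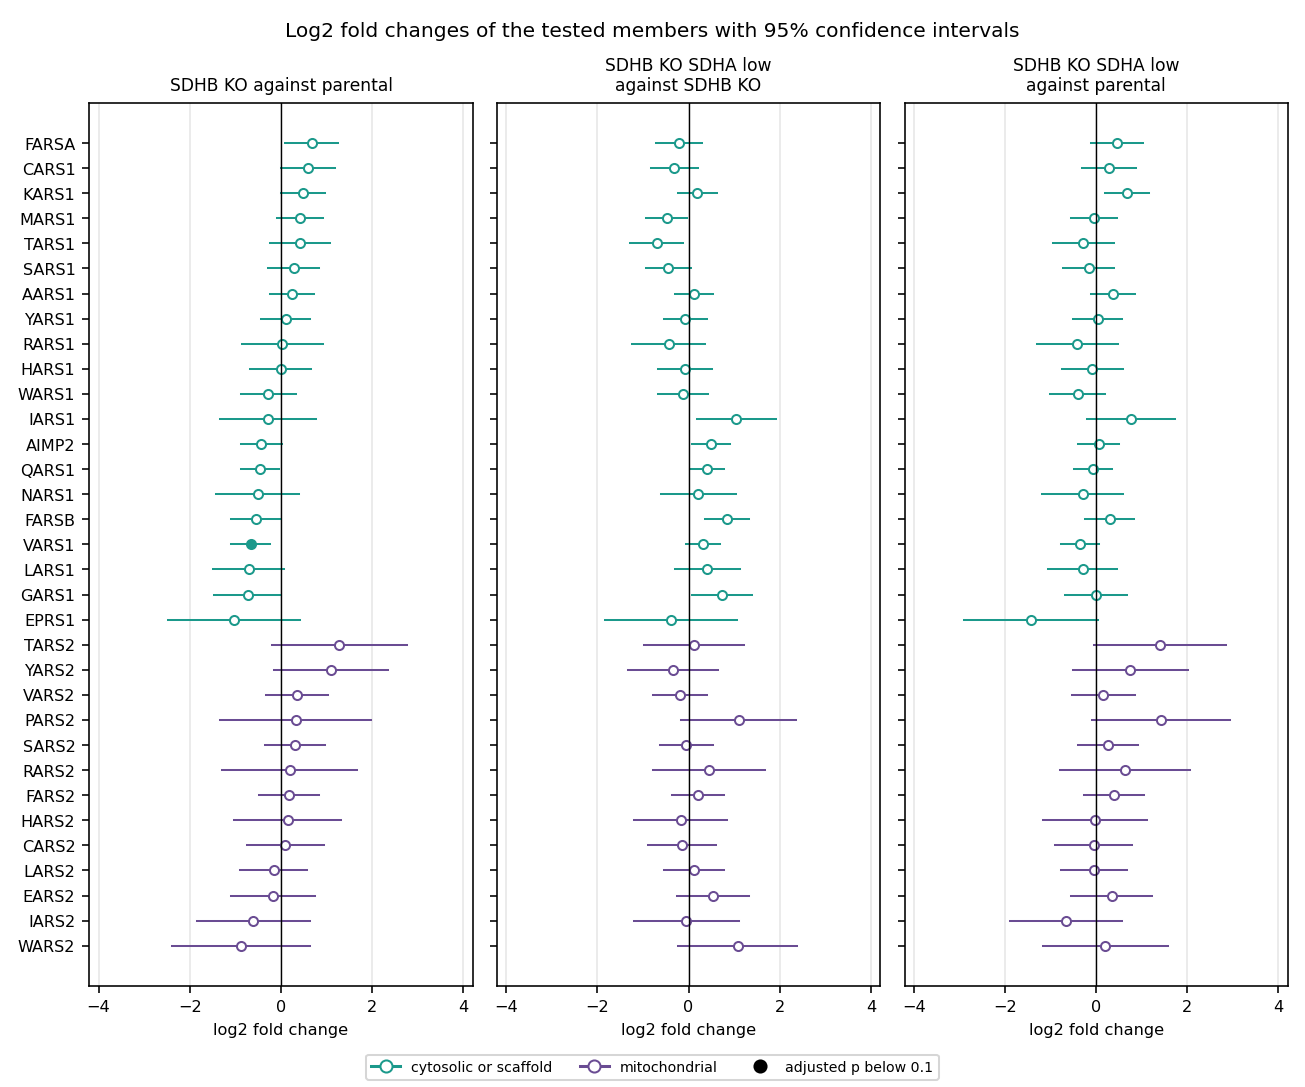
Log2 fold changes of the 33 tested members in the 3 comparisons, with 95% confidence intervals from the edgeR fit; filled symbols mark an adjusted p below 0.1. VARS1 at -0.67 in knockout against parental cells is the filled point, and most intervals cross 0.

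A test of any difference among the 3 groups called none of the 33 members, beside 4.37% of all genes (edgeR, 4 members at an unadjusted p below 0.05, where 17.4% of all genes lay, while DESeq2 called VARS1). The smallest adjusted p were 0.12 for FARSB and 0.15 for VARS1. Of the 10 members of the multisynthetase complex, 8 were tested, with a median log2 difference of -0.36 between knockout and parental cells and of 0.30 between knockdown and knockout cells. Their summed level was 971 ± 9.83 CPM in parental cells (SD, n = 2), 892 ± 34.2 in knockout cells (n = 3) and 1017 ± 62.7 in knockdown cells (n = 3). The direction varied within the complex, since 3 of the 8 were higher and 5 lower in knockout than in parental cells.

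The members not described singly were called in none of the 3 comparisons. For HARS1, LARS1, RARS1, SARS1, WARS1 and YARS1 the log2 differences ran from -0.71 to 0.28 between knockout and parental cells, from -0.45 to 0.41 between knockdown and knockout cells, and from -0.41 to 0.03 between knockdown and parental cells. For the mitochondrial CARS2, HARS2, IARS2, LARS2, RARS2, SARS2 and VARS2 the same ranges were -0.61 to 0.35, -0.19 to 0.44 and -0.66 to 0.63. Their edgeR adjusted p were 0.34 or more. HARS1, HARS2, SARS2 and WARS1 overlap neighbouring genes at their ends, HARS2 and SARS2 on the same strand, so that their counts are less certain.

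Cytosolic and mitochondrial enzymes for the same amino acid were set side by side. Of 13 pairs, 10 had both genes tested. The log2 differences had the same sign in 8 of 10 pairs between knockout and parental cells. The same held for 5 of 10 pairs between knockdown and knockout cells, and for 3 of 10 between knockdown and parental cells. In the first comparison several of these signs rest on small differences. Those of CARS2 (0.095), LARS2 (-0.16), RARS1 (0.029), RARS2 (0.19) and SARS2 (0.31), from pairs of the same sign, turned under at least one alternative. So did those of HARS1 (-0.005) and HARS2 (0.14), a pair of opposite sign. In the second comparison every pair of the same sign held a gene whose sign turned, namely CARS2, HARS2, LARS2, SARS2 or YARS1. The same was true of the third, with HARS1 and HARS2, LARS2 and YARS1. VARS1 and its mitochondrial counterpart VARS2 differed in sign in all 3 comparisons, with -0.67 and 0.35 in the first, although the sign of VARS2 between knockdown and parental cells (0.16) turned without knockdown replicate 2.

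The 7 cytosolic members with the element shown above were spread over both directions. Between knockout and parental cells AARS1, CARS1, MARS1 and TARS1 had positive and GARS1, IARS1 and NARS1 negative differences, from -0.73 for GARS1 to 0.60 for CARS1, and none was called, beside 5.54% of all genes (DESeq2 none). The sign of NARS1 turned without parental replicate 1. At an unadjusted p below 0.05 (edgeR) stood 1 of the 7, CARS1, or 14.3% beside 17.5% of all genes. Between knockdown and knockout cells none of the 7 was called either. At an unadjusted p below 0.05 stood 4, GARS1 and IARS1 higher and MARS1 and TARS1 lower. That was 57.1%, beside 31.6% of the 19 cytosolic enzymes, these 4 included, and 12.1% of all genes. Between knockdown and parental cells none of the 7 stood at either threshold, beside 12.3% and 0.914% of all genes (DESeq2 none). Between knockout and parental cells YARS2 had a difference of 1.09, and ASNS one of 0.79 (adjusted p = 0.27).

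Of 28 listed genes of the ATF4 response, 22 were tested. Between knockout and parental cells SLC7A5, which takes up large neutral amino acids, was higher and PSAT1, an enzyme of serine synthesis, lower. That made 9.09% called beside 5.54% of all genes (edgeR). Of the 12 listed genes with a DESeq2 adjusted p there, ATF4, SHMT2 and SLC7A5 were called, all higher. Over all genes DESeq2 called 394 of 3168. Between knockdown and knockout cells ATF4, SHMT2 (mitochondrial serine hydroxymethyltransferase) and EIF4EBP1 (a repressor of translation initiation) were lower, or 13.6% beside 1.19% of all genes called lower, and none was called between knockdown and parental cells, beside 0.914% (edgeR; DESeq2 none). At an unadjusted p below 0.05 stood 10, 6 and 5 of the 22 in the 3 comparisons. That was 45.5%, 27.3% and 22.7%, beside 17.5%, 12.1% and 12.3% of all genes. They went in both directions. In knockout against parental cells 6 were higher and 4 lower, the latter being PSAT1, SLC7A11, DDIT4 and SLC1A5. In knockdown against knockout cells 2 were higher, ALDH18A1 and SLC3A2, and 4 lower. In knockdown against parental cells 2 were higher and 3 lower. The median log2 difference of the 22 genes was 0.23, 0.07 and 0.06 in the 3 comparisons.

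ATF4 had 160 and 199 CPM in parental cells, 315, 236 and 326 in knockout cells, and 156, 188 and 164 in knockdown cells. Every knockout sample was above all others. The difference from parental to knockout cells was 0.70 (edgeR adjusted p = 0.10, just outside the threshold, while DESeq2 called it), and from knockout to knockdown cells ATF4 fell by 0.78 (adjusted p = 0.075).

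SHMT2 had 244 and 242 CPM in parental cells, 365, 339 and 427 in knockout cells, and 228, 231 and 194 in knockdown cells. EIF4EBP1 had 152 and 150.0 CPM in parental cells, 244, 181 and 236 in knockout cells, and 136, 125 and 117 in knockdown cells. In both genes the knockout samples were highest and the knockdown samples lowest, without overlap. Between knockout and parental cells SHMT2 had a difference of 0.64 (edgeR adjusted p = 0.11, DESeq2 0.049). That of EIF4EBP1 was 0.55 (edgeR adjusted p = 0.21, DESeq2 0.17). SHMT2 and EIF4EBP1 fell by 0.79 (edgeR adjusted p = 0.046) and by 0.80 (adjusted p = 0.069) from knockout to knockdown cells. These 3 calls were lost in a fit of only those 2 groups (adjusted p = 0.13, 0.11 and 0.13 for ATF4, SHMT2 and EIF4EBP1) and without either parental sample, knockout replicate 1 or 3, or knockdown replicate 1 or 3, where adjusted p lay between 0.11 and 0.30.

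SLC7A5 had 147 and 169 CPM in parental cells, 334, 215 and 266 in knockout cells, and 235, 272 and 189 in knockdown cells. Parental samples were the lowest, and the difference of 0.78 in knockout cells (edgeR adjusted p = 0.092) was lost with the correction for GC content (0.12) and without either parental sample (0.58 and 0.30), knockout replicate 1 (0.27) or 3 (0.17), or knockdown replicate 1 (0.11). PSAT1 had 84.5 and 53.1 CPM in parental cells, 12.3, 30.0 and 33.5 in knockout cells, and 47.1, 38.0 and 35.7 in knockdown cells. It fell by 1.42 from parental to knockout cells (adjusted p = 0.039), with all knockout samples lowest, and the call was lost without parental replicate 1 (0.54) or 2 (0.10) and without knockout replicate 1 (0.15). DESeq2 gave PSAT1 a difference of -1.43 but no adjusted p in this comparison, and so did not call it. PHGDH, the entry enzyme of serine synthesis, was below the filter and is named after its values had been seen: it had 12 and 10 counts in the parental samples and 0 in each of the other 6.

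**Figure D5:**
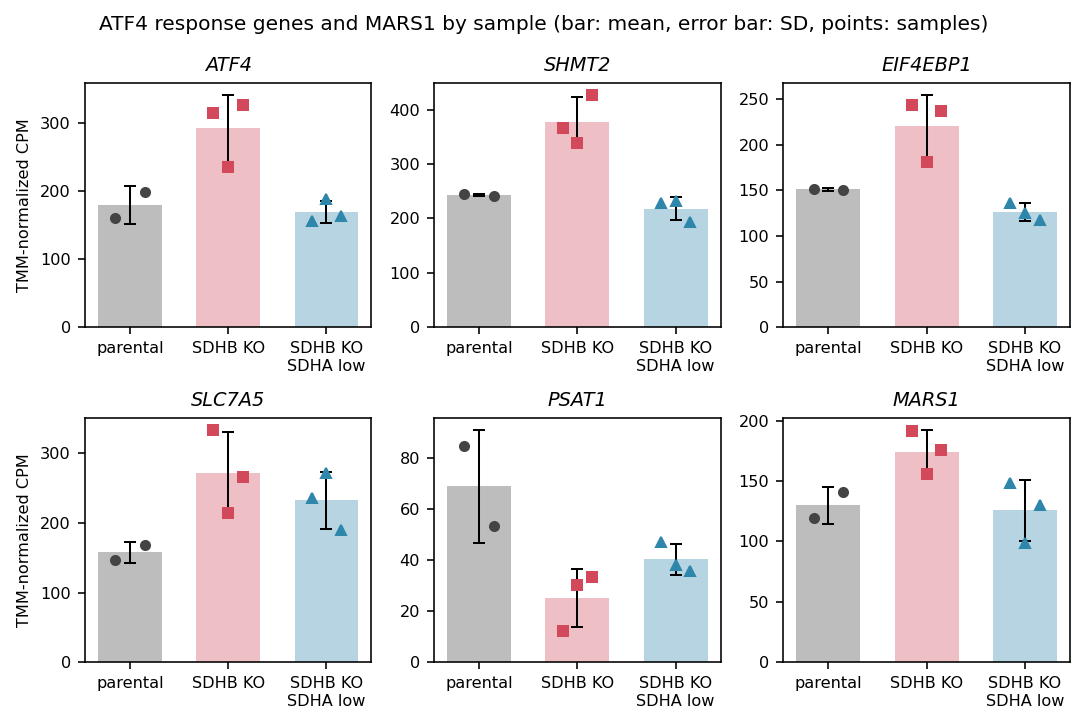
TMM-normalized CPM of ATF4, SHMT2, EIF4EBP1, SLC7A5, PSAT1 and the synthetase MARS1 by group; points are samples, bars the mean and error bars the SD, with n = 2, 3 and 3. ATF4, SHMT2, EIF4EBP1 and MARS1 are highest in the knockout samples, and PSAT1 is highest in the parental samples. MARS1 was chosen after its values had been seen, was called in no comparison, and overlaps DDIT3 at its end. The 7 cytosolic members with the promoter letters, MARS1 among them, went in both directions between knockout and parental cells.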

How the data were processed

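RNA of 8 samples was sequenced from 3′ ends with the QuantSeq FWD kit. The authors trimmed reads with Trimmomatic, discarded reads of ribosomal and mitochondrial RNA, mapped what remained to GRCh38 (annotation release 87) and deposited raw counts per gene made with STAR 2.5.2b (tool names and this version also stand in the submitters' processing notes). The deposited normalized counts are a signal scaled per sample by the authors. Those labelled SDHB KO replicate 1 match the raw counts of replicate 3 and the reverse, and no test used them. All columns of sample values were mapped, and 0 were left out. Of the rows in the count files, those that name no gene (18.8% to 28.6% of reads) were left out.

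The 38 members and all lists were chosen with earlier results of these data known. GENCODE release 44 supplied names, positions and GC content, and all 38 matched. Genes with a DESeq2 BaseMean above 5 (7550) were scaled by TMM and tested with edgeR 4.0.16 (glmQLFit and glmQLFTest, R 4.3.3), with all 8 samples and 3 groups in 1 fit (5 residual degrees of freedom). P-values were adjusted over all tested genes by the Benjamini-Hochberg method, with calls below 0.1. Standard errors and 95% confidence intervals of log2 fold changes follow from the F statistic and its degrees of freedom, and log2 CPM used a prior count of 2. Counts carry sampling error that depth sets, and replicates of a group differed by more than that.

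Genes named are members called in any test, the 3 members of each class (cytosolic or scaffold, and mitochondrial) with the smallest unadjusted p per comparison, members below the filter, called genes of the other lists, and SDHA and SDHB. Others are named as members of a count, or as chosen after their values were seen.

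Alternatives were DESeq2 1.42.0, its size factors within edgeR, 2 other filters, an adjusted p of 0.05, fits of 2 groups, the replicate number as a block, omission of each sample in turn and, added after seeing the data, a correction for GC content (a lowess trend with span 0.3 per sample, entered as offset). Scripts were first tested on simulated counts. Whether counting used strand is not given in the sources used here. The proteomic and other experiments of the study were not analysed here.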

Additional observations from a re-analysis of the deposited data

How the results depend on the processing

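The number of members called between knockout and parental cells, 1 with edgeR, was 0 without a filter on low counts, 0 at an adjusted p of 0.05, 2 in a fit of the 2 groups only (FARSA and VARS1), and 0 to 2 when a sample was left out; without knockout replicate 2 the called member was FARSA in place of VARS1. Between knockdown and knockout cells it was 0, and 1 (FARSB) with filterByExpr of edgeR, 1 with the GC correction and 0 to 1 with a sample left out. For any difference among the 3 groups it was 0, and 1 with DESeq2 (VARS1), 1 with the GC correction (FARSB) and 0 to 3 with a sample left out, the 3 being FARSA, FARSB and VARS1 without knockdown replicate 2. Between knockdown and parental cells it was 0 under every alternative run. The causes were not tested. Samples with the same replicate number did not deviate together (correlations -0.27 to 0.0931, 0 of 7 above 0.1), so the numbers were not taken to pair the samples. With the number as a block, 0 members were called between knockout and parental cells (VARS1 -0.65, adjusted p = 0.20), and 0 in the other tests. Over all genes, the count of 418 in knockout against parental cells was 199 with the block, 773 in a fit of the 2 groups, and 0 to 833 with a sample left out. The 114 in knockdown against knockout cells were 39 to 362 with a sample left out, and the 69 in knockdown against parental cells 4 to 172, the highest of each without knockdown replicate 2. Of the 99 log2 fold changes (33 members in 3 comparisons), 35 changed sign under at least one alternative, all of them 0.51 or smaller in size and none called. Of these, 10 did so under a setting that kept all samples, among them SARS2 between knockdown and knockout cells and AIMP2 and YARS1 between knockdown and parental cells with the GC correction. The median of the cytosolic enzymes between knockout and parental cells was -0.21 without knockout replicate 2. On a few counts per sample, as in EPRS1, PARS2, TARS2, WARS2 and YARS2, only large differences could pass the test.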
